A study of Mus musculus with 4 samples.

Results

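Histone-modifying enzymes add or remove methyl and acetyl groups on the tails of histones. They were followed here in mouse embryonic stem cells after loss of Smarca4, which encodes BRG1, an ATPase that drives nucleosome remodeling by the BAF (mSWI/SNF) complexes. The enzymes were the genes whose symbols begin with Kdm1 to Kdm8 (lysine demethylases), Setd, Prmt, Ehmt, Suv39h or Suv420h (methyltransferases), Hdac or Sirt1 to Sirt7 (deacetylases) and Kat2 to Kat8 (acetyltransferases). This rule took 69 of the 24428 genes in the files, namely 18 demethylases, 26 methyltransferases, 18 deacetylases and 7 acetyltransferases. Of these, 67 had enough reads to be tested. Kdm4d and Setdb2-phf11c, a read-through model spanning Setdb2 and Phf11c, did not; the latter had 0 reads in every library. The rule reads symbols and no measured values, but it was chosen with earlier results of these data known.

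The cells were of the 129SvEv background, at passage 15-20, and their medium held serum and LIF, a cytokine that keeps such cells undifferentiated. They carried floxed Smarca4 and a Cre recombinase that 4-hydroxytamoxifen switches on (the labels call them Smarca4-CreER and Smarca4flfl). One group was given ethanol (n = 2) and the other 0.8 uM 4-hydroxytamoxifen (n = 2), for 48 h, and both were collected 72 h after the start. The genotype field names the deletion for all 4 libraries, so titles and treatments define the groups. How many clones or separate cultures they stand for is not given in the sources used here, so p-values measure only how far these samples spread, and that spread may be technical. A tamoxifen-treated culture without floxed Smarca4 was not analysed here, so deletion, drug and active Cre cannot be told apart. In bulk RNA, fewer cells of a type and less RNA per cell cannot be told apart either.

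Reads in genes numbered between 13458463 and 27086142 per library. Smarca4 fell 5.38-fold, from 328 and 409 CPM (read counts relative to the scaled library total) with ethanol to 68.5 and 68.7 with tamoxifen. Counts cover the whole gene, and which exons are deleted is not given in the sources used here. The stem cell markers Pou5f1, Sox2 and Nanog were present in every library, and the summed level of 14 such markers was 5986 to 6066 CPM with ethanol and 5811 to 6150 with tamoxifen. Of these 14, 2 were higher (Klf4, 0.62 log2, and Dppa5a, 0.53) and 3 lower (Tcl1, -1.17, Fgf4, -0.93, and Tdgf1, -0.52). Markers of fibroblasts, which serve as feeder cells, were higher with tamoxifen in 14 of 19 tested cases. Their summed level was 1997 to 2240 CPM with ethanol and 2986 to 3178 with tamoxifen, none of 20 was at 0 throughout, and only Lum stayed below 1 CPM. For 18 primitive endoderm markers, of which 6 were higher and 1 lower, the sums were 4084 to 4486 and 4824 to 5047 CPM, again with none at 0 throughout. By the test described below, 35.7% of the stem cell, 73.7% of the tested fibroblast and 38.9% of the endoderm markers were called. Of all tested genes 44.5% were called. The part of these cell types in the results below was not tested.

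As background, acetylation of histone tails loosens chromatin and marks active promoters and enhancers, and deacetylases undo it within repressor complexes such as NuRD, Sin3 and CoREST. Methylation acts by position: H3K4 methylation accompanies active promoters and enhancers, H3K36 methylation transcribed gene bodies, and H3K9, H3K27 and H4K20 methylation are tied to repression. In embryonic stem cells, H3K9 methyltransferases silence retroviral repeats, and LSD1 (Kdm1a) and the class I deacetylases take part in shutting enhancers during differentiation.

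Of the 67 tested enzymes, 16 had higher and 10 lower levels after tamoxifen, called at a Benjamini-Hochberg adjusted p under 0.05 over all tested genes in edgeR's quasi-likelihood test. That is 38.8% of the enzymes, against 44.5% of all 14479 tested genes (21.5% higher and 22.9% lower). Changes were small: the median absolute log2 fold change was 0.32 for the enzymes and 0.46 for all tested genes, and 46 of the 67 lay within 0.5 of 0. Only Setdb2, Prmt8 and Hdac2 changed at least 2-fold, all downward, where 12.6% of all tested genes changed that much. Setdb2 was so low that it entered the test only through its ethanol libraries. Both tamoxifen libraries lay to 1 side of both ethanol libraries for 54 of the 67 (80.6%, against 74% of all tested genes). The median log2 fold change, tamoxifen minus ethanol, was 0.12 for the enzymes and -0.01 for all tested genes. Scaled by total counts, which moved the median of all genes to 0.12, 24 enzymes were higher and 5 lower. Of all 14479 tested genes, 4082 were higher and 2520 lower by that scaling.

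The promoters of the 4 enzymes with the largest changes are shown here so that the starting points of the genes discussed below can be seen. They are Setdb2, Prmt8 and Hdac2, the 3 that fell at least 2-fold, and Hdac5, which rose most. Each is the 250 bases before the start site listed by RefSeq for GRCm38.p6, 5′ to 3′ on the gene's strand: chr14:59440881-59441130 (minus strand), chr6:127769160-127769409 (minus strand, the more upstream of 2 listed starts), chr10:36974294-36974543 (plus strand) and chr11:102230173-102230422 (minus strand). The counts were made on mm9, so these positions belong to the reference only. Capitals mark the GC box GGGCGG and the CCAAT box CCAAT, each searched on both strands.
Setdb2: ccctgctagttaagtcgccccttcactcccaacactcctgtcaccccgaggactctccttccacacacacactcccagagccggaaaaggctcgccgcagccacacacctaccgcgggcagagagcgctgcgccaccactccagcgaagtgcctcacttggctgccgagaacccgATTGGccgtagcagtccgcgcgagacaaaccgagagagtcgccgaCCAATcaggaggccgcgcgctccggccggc
Prmt8: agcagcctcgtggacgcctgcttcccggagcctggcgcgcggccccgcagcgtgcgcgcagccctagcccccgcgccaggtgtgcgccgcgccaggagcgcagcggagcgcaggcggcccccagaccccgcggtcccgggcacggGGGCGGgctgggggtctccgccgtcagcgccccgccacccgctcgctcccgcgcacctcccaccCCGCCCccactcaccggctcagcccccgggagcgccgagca
Hdac2: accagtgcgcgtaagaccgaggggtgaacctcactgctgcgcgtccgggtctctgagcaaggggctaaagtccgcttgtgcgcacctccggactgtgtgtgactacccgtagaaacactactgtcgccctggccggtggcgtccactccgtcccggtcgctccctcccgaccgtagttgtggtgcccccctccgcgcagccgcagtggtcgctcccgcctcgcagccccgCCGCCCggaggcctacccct
Hdac5: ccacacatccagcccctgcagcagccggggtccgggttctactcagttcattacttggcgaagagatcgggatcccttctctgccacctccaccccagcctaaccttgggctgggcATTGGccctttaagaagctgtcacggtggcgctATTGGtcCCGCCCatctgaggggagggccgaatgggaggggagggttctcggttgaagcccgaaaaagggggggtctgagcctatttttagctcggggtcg
The Setdb2 window held 2 CCAAT boxes and no GC box, that of Prmt8 2 GC boxes, that of Hdac2 1 GC box, and that of Hdac5 1 GC box and 2 CCAAT boxes. A GC box was found in 33% and a CCAAT box in 34.5% of 27025 RefSeq promoters of this length, and in 56.9% and 48.3% of the 58 enzyme promoters that matched by symbol. The E-box CACGTG, the AP-1 site TGACTCA, the octamer ATGCAAAT and the TATA box TATAAA were not in these 4 windows. GC content was 65.6% for Setdb2, 81.6% for Prmt8, 68.8% for Hdac2 and 60.8% for Hdac5, where the median was 57.8% over the 58 enzymes and 52.0% over all promoters. A match describes these letters and not a binding site.

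**Figure D1:**
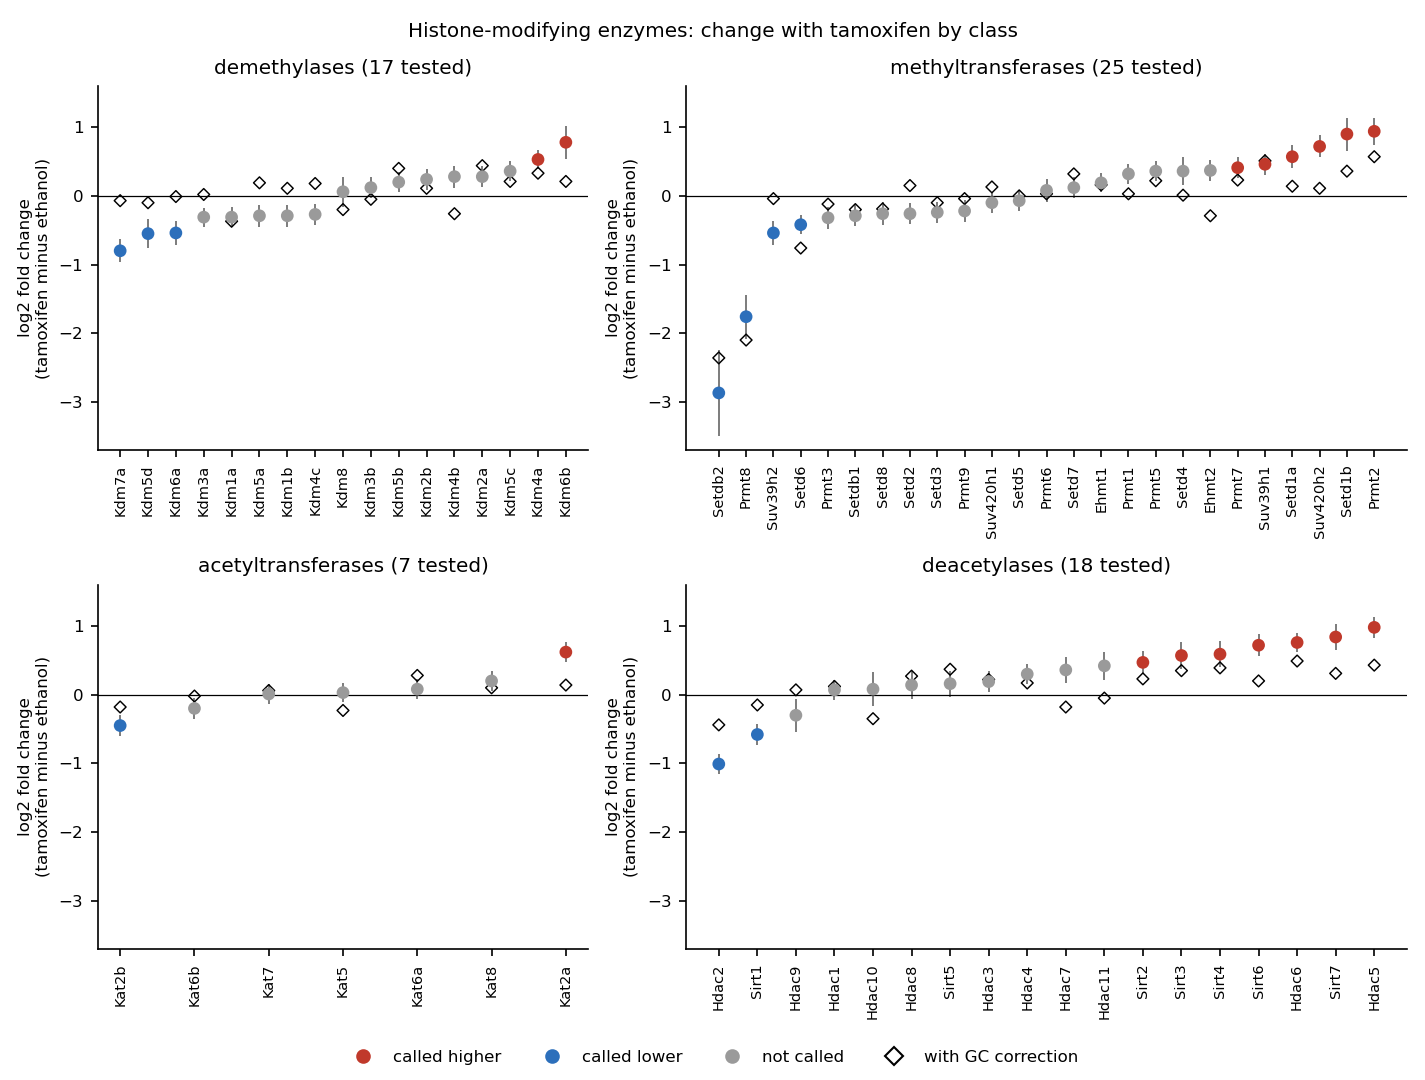
Log2 fold change (tamoxifen minus ethanol) of the 67 tested enzymes in 4 panels by class, with bars for 1 SE (n = 2 libraries a group); red and blue are called higher and lower, grey is not called, and open diamonds are the values after GC correction. Setdb2 and Prmt8 lie far below the rest, and most red and blue points move toward 0 after the correction.

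A property of the transcripts moved with these results. Genes with GC-rich transcripts tended to be higher and GC-poor ones lower with tamoxifen, in the enzymes (Spearman rho 0.78 between log2 fold change and GC content, n = 67 genes, which share the 4 libraries and are not independent) as in all tested genes (0.64). All 16 higher enzymes had transcripts of 50 to 60% GC. Of the 10 lower ones, 8 lay between 39.6 and 46.6%, and Prmt8 (55.2%) and Setd6 (55.4%) were the exceptions. Below 47% GC, 0 of 14 enzymes were higher and 8 lower, with a median log2 fold change of -0.49. Of the 4587 tested genes in that range 3.2% were higher and 52.3% lower, with a median of -0.50. From 53% upward, 15 of 27 were higher and 2 lower, against 45.4% and 3.95% of 5315 genes, with a median of 0.47 in both. Between these limits, which were set after seeing the data, 1 of 26 was higher and 0 lower, against 12.2% and 15.4% of 4493 genes, with medians of 0.10 and -0.03. With each library's GC trend removed (GC correction), 3 enzymes were higher and 4 lower (10.4%, against 20.1% of all tested genes, 10.1% higher and 9.98% lower): Kdm2a, Suv39h1 and Hdac6, and Setdb2, Prmt8, Setd6 and Hdac2. Only Prmt8 kept its corrected call without each of the 4 libraries. The correction also removes any GC-related part of a response to the treatment. Each fold change below is uncorrected unless marked. The corrected log2 value follows it where a called enzyme is described, and is left out for most enzymes that were not called. The correction turned the sign of 15 enzymes, which are listed near the end.

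**Figure D2:**
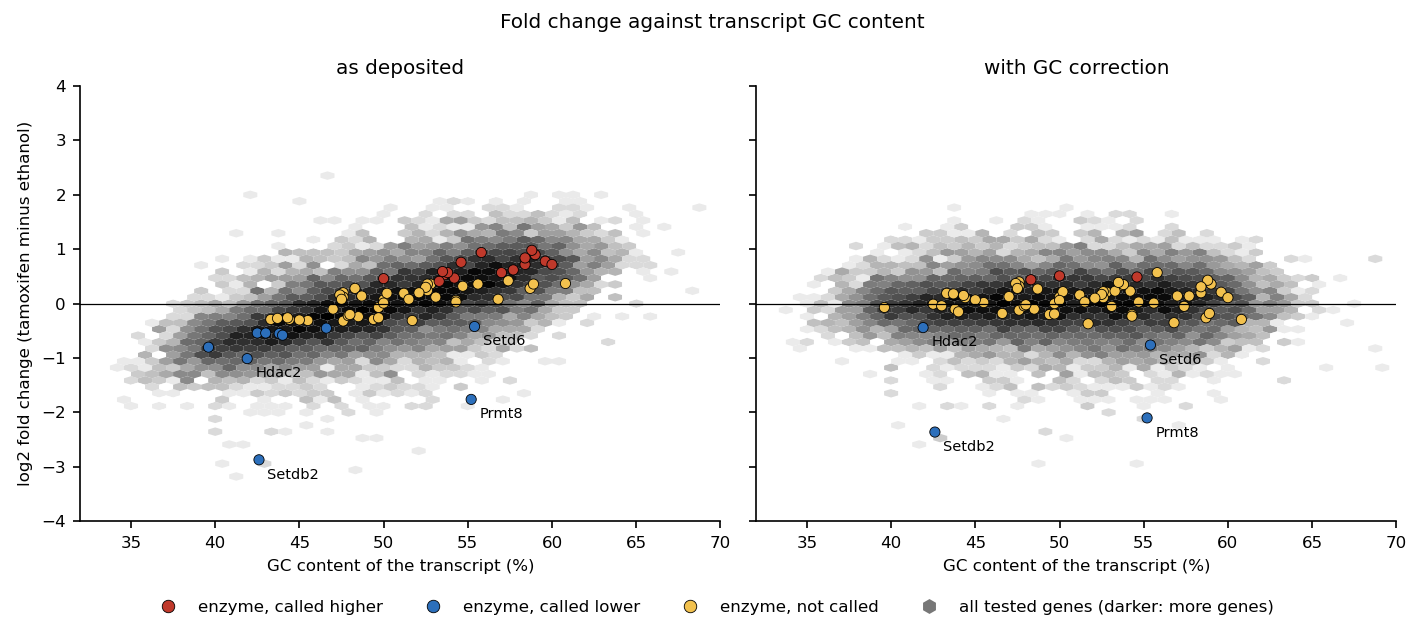
Log2 fold change (tamoxifen minus ethanol) against GC content of the transcript in percent, before (left) and after (right) GC correction; grey hexagons are all tested genes within the axes (darker means more genes) and coloured points the 67 enzymes. Before correction the enzymes follow the slope of all genes, with Setdb2, Prmt8 and Setd6 below it, and after it Setdb2 and Prmt8 remain the lowest.

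Demethylases changed little. Of 17 tested, 2 rose (Kdm6b and Kdm4a) and 3 fell (Kdm7a, Kdm5d and Kdm6a), which is 29.4% (44.5% of all tested genes), with a median log2 fold change of 0.06. The 12 others lay between -0.31 and 0.36. After GC correction none of these 5 calls held, and Kdm2a, a nucleosomal H3K36 demethylase, was called higher (0.44, against 0.28 uncorrected). The corrected share was thus 5.88%, against 20.1% of all tested genes. Together the 18 demethylases took 2045 and 2057 CPM with ethanol and 2166 and 2077 with tamoxifen.

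The H3K27 demethylases moved in opposite directions. Kdm6b (JMJD3), which is induced by many signals, stood at 139 and 82.7 CPM in the ethanol libraries and at 214 and 167 with tamoxifen. The groups did not overlap, although the ethanol libraries differed widely. It rose 1.72-fold, by 0.78 ± 0.24 log2 (SE; edgeR quasi-likelihood test, adjusted p = 0.0255; 0.21 corrected). Kdm6a (UTX), its X-linked paralog, had 158 and 118 CPM with ethanol and 101 and 89.7 with tamoxifen. It fell 1.45-fold, by 0.54 ± 0.17 log2 (adjusted p = 0.0206; -0.01 corrected). Per kb of transcript, Kdm6b had 0.785 and 0.624 times the reads of Kdm6a with ethanol and 1.89 and 1.66 times with tamoxifen, so that the order of the paralogs was exchanged in both tamoxifen libraries. Their transcripts differ in GC content (59.6 and 42.5%). The change of this ratio was 1.34 log2, and 0.23 with GC correction.

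Among the H3K4 demethylases, 1 of 6 changed (16.7%, against 44.5% of all tested genes). Kdm1a (LSD1), the most abundant demethylase per transcript length, had 241 and 233 CPM with ethanol and 196 and 187 with tamoxifen. The groups did not overlap, but the log2 fold change of -0.31 ± 0.15 did not pass (adjusted p = 0.105). Kdm1b, the paralog that acts in oocytes, had -0.29 ± 0.16, and the ratio of Kdm1a to Kdm1b per kb was 15.6 and 14.2 with ethanol and 15.9 and 13.7 with tamoxifen. This was the only 1 of 10 paralog pairs whose ratio overlapped between the groups. In the Kdm5 family, Kdm5a had 119 and 155 CPM with ethanol and 104 and 119 with tamoxifen. Kdm5b, high in self-renewing stem cells, had 362 and 371 against 419 and 421. For the X-linked Kdm5c the levels were 171 and 197 against 242 and 230. These 3 were not called, with log2 fold changes of -0.29, 0.20 and 0.36. Kdm5d, the Y-linked counterpart of Kdm5c, was low at 5.93 and 6.72 CPM with ethanol and 4.39 and 4.32 with tamoxifen. It fell by 0.55 ± 0.21 log2 (adjusted p = 0.0485; -0.10 corrected), at the edge of the threshold.

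The list of H3K9 and H3K36 demethylases had 8 tested members, of which 1 (12.5%, against 44.5% of all tested genes), Kdm4a, changed. Its levels were 71.9 and 71.5 CPM with ethanol and 110 and 97.1 with tamoxifen, a rise of 0.53 ± 0.14 log2 (adjusted p = 0.0104; 0.33 corrected). Its paralogs Kdm4b (0.28) and Kdm4c (-0.27) were not called. Kdm3a and Kdm3b, which remove H3K9 methylation, had -0.31 and 0.12. Kdm7a, which acts on H3K9 and H3K27 but was in none of the lists by substrate, had the lowest GC content of the enzymes (39.6%) and the largest fall of the class. It went from 50.1 and 68.5 CPM to 33.7 and 34.6, by 0.80 ± 0.17 log2 (adjusted p = 0.00289; -0.07 corrected).

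Single libraries decided several of these calls. Without ethanol replicate 1 the call of Kdm6a ended (-0.31), and Kdm6b stood at 1.21 log2. Without ethanol replicate 2 that of Kdm5d ended (-0.44). Without tamoxifen replicate 1 those of Kdm5d (-0.56), Kdm4a (0.44) and Kdm6b (0.59) ended, and without tamoxifen replicate 2 those of Kdm5d (-0.53) and Kdm6a (-0.45). Kdm7a was called in all 4 cases.

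**Figure D3:**
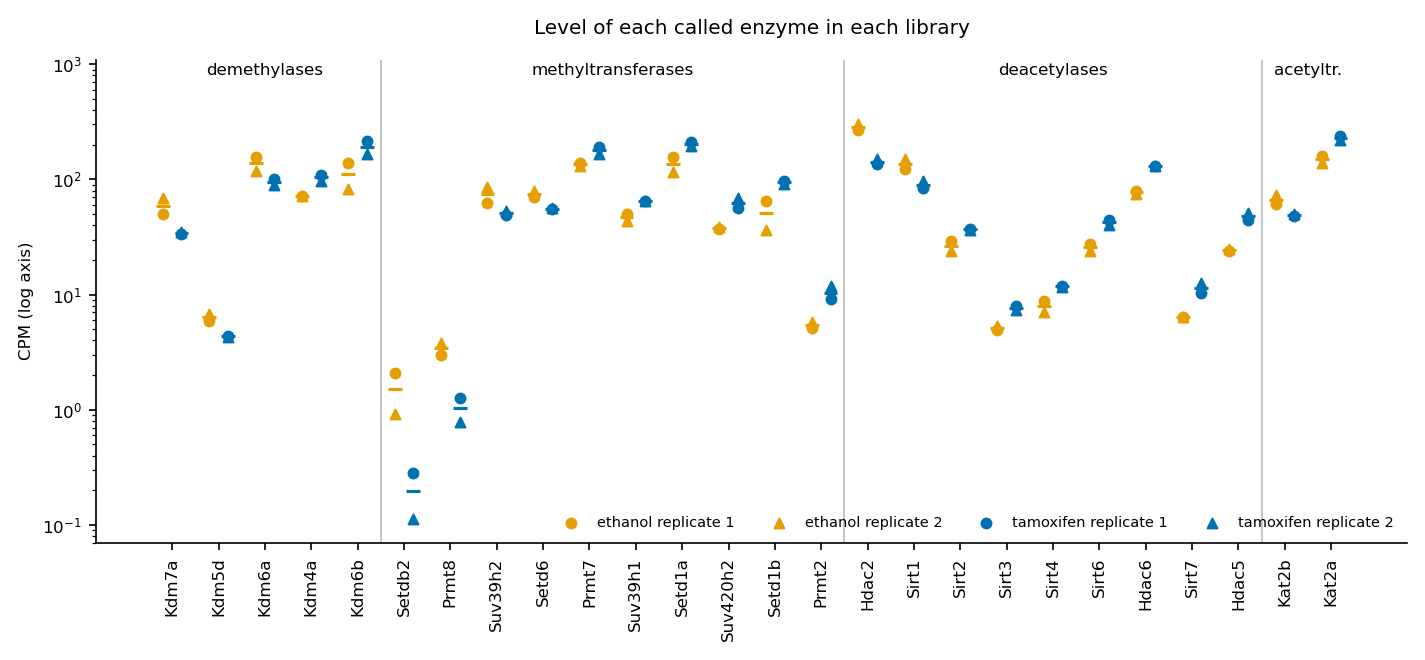
CPM (log axis) of the 26 called enzymes in each library, ordered within class by log2 fold change; orange is ethanol, blue is tamoxifen, circles and triangles are replicates 1 and 2, and short lines are group means. The groups of each gene do not overlap, and Setdb2 lies near 1 CPM and below.

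Methyltransferases held the 2 largest changes of all the enzymes, and both were falls of genes with few counted reads. The larger, that of Setdb2, belongs to a gene that passed the filter on low counts only through the ethanol libraries. Of 25 tested, 6 rose and 4 fell (40%, near the 44.5% of all tested genes), with a median log2 fold change of 0.08; the 15 others lay between -0.32 and 0.37. With GC correction 1 was higher and 3 lower (16%, against 20.1% of all tested genes). As a class they took 2919 and 2872 CPM with ethanol and 3101 and 3057 with tamoxifen.

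H3K9 methyltransferases gave 1 rise and 2 falls among 6 (50%, near the 44.5% of all tested genes). Setdb2 had 32 and 24 reads with ethanol and 4 and 2 with tamoxifen, or 2.08 and 0.922 against 0.283 and 0.112 CPM. It was thus near the limit of detection in every library and lower in both tamoxifen libraries. It passed the filter on low counts only through the ethanol libraries, so a gene this low could enter the test only by being high in 1 group, and the fitted value is a description. The fitted fall was 7.29-fold, 2.87 ± 0.63 log2 (adjusted p = 0.00364; -2.36 corrected). The ratio of the summed reads was 7.21, with an exact 95% interval of 3.11 to 20.5 that covers counting error only. Its size depended on the libraries, from -2.25 without ethanol replicate 1 and -2.31 without tamoxifen replicate 2 to -3.41 without ethanol replicate 2 and -3.61 without tamoxifen replicate 1. The read-through model Setdb2-phf11c shares its exons, so reads may have been set aside as ambiguous, and how they were counted is not given in the sources used here. Setdb1, the paralog that silences retroviral repeats in stem cells, had 177 and 200 CPM with ethanol and 160 and 149 with tamoxifen (-0.29 ± 0.15, not called). Per kb it exceeded Setdb2 by 55.3 and 141 times with ethanol and 367 and 866 times with tamoxifen.

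Suv39h1 and Suv39h2, which place H3K9 trimethylation at pericentric heterochromatin, moved in opposite directions. Suv39h1 rose from 50.3 and 43.8 CPM to 64.5 and 64.3, by 0.46 ± 0.15 log2 (adjusted p = 0.0240; 0.51 corrected, still called). Suv39h2 fell from 61.9 and 86.5 CPM to 49.5 and 52.9, by 0.54 ± 0.17 (adjusted p = 0.0232; -0.04 corrected). The ratio of Suv39h1 to Suv39h2 per kb went from 1.13 and 0.703 to 1.81 and 1.69, with no overlap. Ehmt1 and Ehmt2 (GLP and G9a), which form the main enzyme of H3K9 dimethylation in euchromatin, did not pass the test. Ehmt2 had 127 and 141 CPM against 160 and 186 (0.37 ± 0.15, adjusted p = 0.0631; -0.29 corrected), and Ehmt1 99.2 and 106 against 116 and 118 (0.19 ± 0.14).

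The SET1 enzymes of H3K4 methylation rose together. Setd1b went from 64.7 and 36.6 CPM to 96.7 and 91.6, by 0.90 ± 0.24 log2 (adjusted p = 0.0135; 0.36 corrected), and stood at 1.37 without ethanol replicate 1. Setd1a went from 157 and 117 CPM to 213 and 194, by 0.57 ± 0.17 (adjusted p = 0.0167; 0.14 corrected). In both genes ethanol replicate 2 was the lowest library. Setd7, a monomethyltransferase with many non-histone substrates, and Setd2, which trimethylates H3K36, were not called (0.12 and -0.26). For H4K20, Suv420h2 rose from 37.0 and 38.9 CPM to 56.1 and 69.3, by 0.72 ± 0.16 (adjusted p = 0.00303; 0.11 corrected). Its paralog Suv420h1 had 46.1 and 50.8 CPM against 43.4 and 46.8 (-0.10 ± 0.15), and Setd8, which places the first methyl group, had -0.26.

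Of the other SETD genes, Setd6, which methylates the NF-kappaB subunit RelA, fell from 70 and 78.9 CPM to 55.2 and 56.2. The change was -0.42 ± 0.14 log2 (adjusted p = 0.0320), and -0.76 after GC correction, still called. Setd3, which methylates actin, Setd4 and Setd5 were not called (-0.24, 0.36 and -0.07).

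Arginine methyltransferases gave 2 rises and 1 fall among 8 (37.5%, near the 44.5% of all tested genes). Prmt5, the main symmetric arginine methyltransferase and the most abundant enzyme of all 69 per transcript length, had 336 and 345 CPM with ethanol and 451 and 421 with tamoxifen. The groups did not overlap, but 0.36 ± 0.15 log2 did not pass (adjusted p = 0.0671). Prmt1, the main asymmetric enzyme, had 194 and 204 against 228 and 269 (0.32 ± 0.15, adjusted p = 0.107). Prmt8, a membrane-bound paralog of Prmt1 known from neurons, was named after its values were seen, since it lies below the level at which genes were chosen. It had 46 and 99 reads with ethanol and 18 and 14 with tamoxifen, or 3 and 3.80 against 1.27 and 0.785 CPM. This was a fall of 3.40-fold, 1.76 ± 0.32 log2 (adjusted p = 0.00127), and -2.10 with GC correction. Prmt2 rose from 5.08 and 5.76 CPM to 9.06 and 11.8, by 0.94 ± 0.20 (adjusted p = 0.00319; 0.57 corrected, not called). Prmt7, which adds single methyl groups, rose by 0.41 ± 0.15 (adjusted p = 0.0396; 0.23 corrected).

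Prmt8, Prmt2 and Setd1b were called without each of the 4 libraries. So was Setdb2, but it passed the filter on low counts only through the ethanol libraries, so its calls add no support. Without ethanol replicate 2 the calls of Setd1a (0.38), Suv39h1 (0.36), Suv39h2 (-0.27), Setd6 (-0.32) and Prmt7 (0.37) ended. Without tamoxifen replicate 1 the same 5 ended, at 0.49, 0.45, -0.49, -0.41 and 0.31 in that order. Without tamoxifen replicate 2 those of Suv39h1 (0.46), Suv39h2 (-0.58), Suv420h2 (0.57), Setd6 (-0.43) and Prmt7 (0.51) ended. With GC correction, Setdb2 was not called without ethanol replicate 1 or tamoxifen replicate 2, Setd6 without tamoxifen replicate 2, and Suv39h1 when any library but ethanol replicate 1 was left out.

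Of 18 deacetylases 9 changed (50%, near the 44.5% of all tested genes). Of these, 7 rose and 2 fell, and 15 of the 18 had a positive log2 fold change, with a median of 0.33. The 9 others lay between -0.30 and 0.42. Their summed level did not rise, at 822 and 887 CPM with ethanol and 798 and 821 with tamoxifen, and Hdac2, the most abundant member per transcript length with ethanol, fell. With GC correction only Hdac6 was higher and Hdac2 lower (11.1%, against 20.1% of all tested genes), and the median was 0.21.

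Hdac1 and Hdac2 are closely related class I enzymes that share the NuRD, Sin3 and CoREST complexes. Hdac2 stood at 271 and 305 CPM with ethanol and 136 and 151 with tamoxifen. It fell in both tamoxifen libraries, 2.01-fold or by 1.01 ± 0.15 log2 (adjusted p = 0.000457; -0.44 corrected, still called). Hdac1 had 119 and 141 CPM with ethanol and 140 and 134 with tamoxifen, with overlapping groups and a log2 fold change of 0.07 ± 0.15. Per kb of transcript, Hdac2 supplied 58.8 and 57.6% of the reads of the pair with ethanol and 37.9 and 41.4% with tamoxifen. The ratio of Hdac1 to Hdac2 rose 2.11-fold, from 0.702 and 0.737 to 1.64 and 1.42, a log2 change of 1.08 and of 0.56 with GC correction. The other class I genes, Hdac3 (0.19), the enzyme of the NCoR complex, and Hdac8 (0.14), which deacetylates cohesin, were not called.

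Class IIa deacetylases shuttle between nucleus and cytoplasm, and 1 of 4 changed (25%, against 44.5% of all tested genes). Hdac5 had 23.9 and 24.7 CPM with ethanol and 44.8 and 51.2 with tamoxifen. It rose 1.97-fold, by 0.98 ± 0.15 log2 (adjusted p = 0.000499), and was not called with GC correction (0.43). Hdac4 (0.30), Hdac7 (0.36) and the low Hdac9 (-0.30) were not called. In class IIb, Hdac6, the cytoplasmic tubulin deacetylase, rose from 79.2 and 75.4 CPM to 131 and 132. Its replicates lay close together in each group, and the rise was 0.76 ± 0.14 log2 (adjusted p = 0.00130; 0.49 corrected, still called). Hdac10 (0.08) and the class IV gene Hdac11 (0.42) were not called.

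Sirtuins, the NAD-dependent deacetylases, changed in 6 of 7 cases, 5 upward and 1 downward, and in all 7 the groups did not overlap. Of all tested genes 44.5% were called and 74% had groups that did not overlap. Sirt6, which deacetylates H3K9 and H3K56, rose from 27.6 and 23.8 CPM to 44.7 and 39.8, by 0.72 ± 0.16 log2 (adjusted p = 0.00319; 0.20 corrected). Sirt7, a nucleolar H3K18 deacetylase, went from 6.38 and 6.34 CPM to 10.3 and 12.5, by 0.84 ± 0.19 (adjusted p = 0.00387; 0.31 corrected). The mitochondrial Sirt3 and Sirt4 rose by 0.57 and 0.59, and Sirt2, mainly cytoplasmic, by 0.47 (0.35, 0.39 and 0.23 corrected). Against these, Sirt1, the most abundant sirtuin per transcript length with ethanol, fell from 122 and 149 CPM to 83.5 and 97.0, by 0.58 ± 0.16 (adjusted p = 0.0105; -0.15 corrected). Sirt5, also mitochondrial, had 0.16. Sirt1 had 44.0% GC in its transcript and the 5 sirtuins that rose 53.5 to 58.4%, and no sirtuin was called with GC correction.

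The calls of Hdac2, Hdac5, Hdac6 and Sirt6 held without each of the 4 libraries. Without ethanol replicate 1 that of Sirt3 ended (0.52), and without ethanol replicate 2 those of Sirt2 (0.34) and Sirt4 (0.44). Without tamoxifen replicate 1 Sirt1 (-0.48), Sirt2 (0.46), Sirt3 (0.51) and Sirt4 (0.57) were not called, and without tamoxifen replicate 2 Sirt2 (0.48), Sirt3 (0.63), Sirt4 (0.60) and Sirt7 (0.69). DESeq2 did not call Sirt3 (0.57), Sirt4 (0.59) or, among the demethylases, Kdm5d (-0.55). With GC correction the call of Hdac2 held only without ethanol replicate 1, and that of Hdac6 was lost without either tamoxifen library.

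Acetyltransferases changed in 2 of 7 cases (28.6%, against 44.5% of all tested genes), both in the GNAT family. Kat2a (GCN5), the catalytic subunit of SAGA and ATAC in stem cells, rose from 160 and 139 CPM to 237 and 222. The change was 0.62 ± 0.15 log2 (adjusted p = 0.00630; 0.14 corrected). Kat2b (PCAF), its paralog, fell from 60.7 and 73.1 CPM to 47.8 and 50.5, by 0.45 ± 0.15 (adjusted p = 0.0304; -0.18 corrected). The ratio of Kat2a to Kat2b per kb rose from 4.04 and 2.91 to 7.56 and 6.73, by 1.06 log2 (0.32 corrected). The call of Kat2a ended without tamoxifen replicate 1 (0.57), and that of Kat2b when any library but ethanol replicate 1 was left out (-0.30, -0.41 and -0.48).

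Of the 5 MYST acetyltransferases, 0 were called by edgeR, against 44.5% of all tested genes, and their log2 fold changes lay between -0.20 and 0.20. From the same 4 libraries, 0 were called by DESeq2 and 0 had an unadjusted p under 0.05 in edgeR's test. With 2 libraries a group, small changes could be missed. Kat7 (HBO1), the most abundant acetyltransferase per transcript length in the ethanol libraries, had 267 and 260 CPM with ethanol and 281 and 249 with tamoxifen. The groups overlapped, and the log2 fold change was 0.01 ± 0.15. Kat6a and Kat6b (MOZ and MORF) had 253 and 265 against 274 and 273 CPM, and 286 and 269 against 244 and 241. Kat5 (TIP60) and Kat8 (MOF) had log2 fold changes of 0.03 and 0.20.

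**Figure D4:**
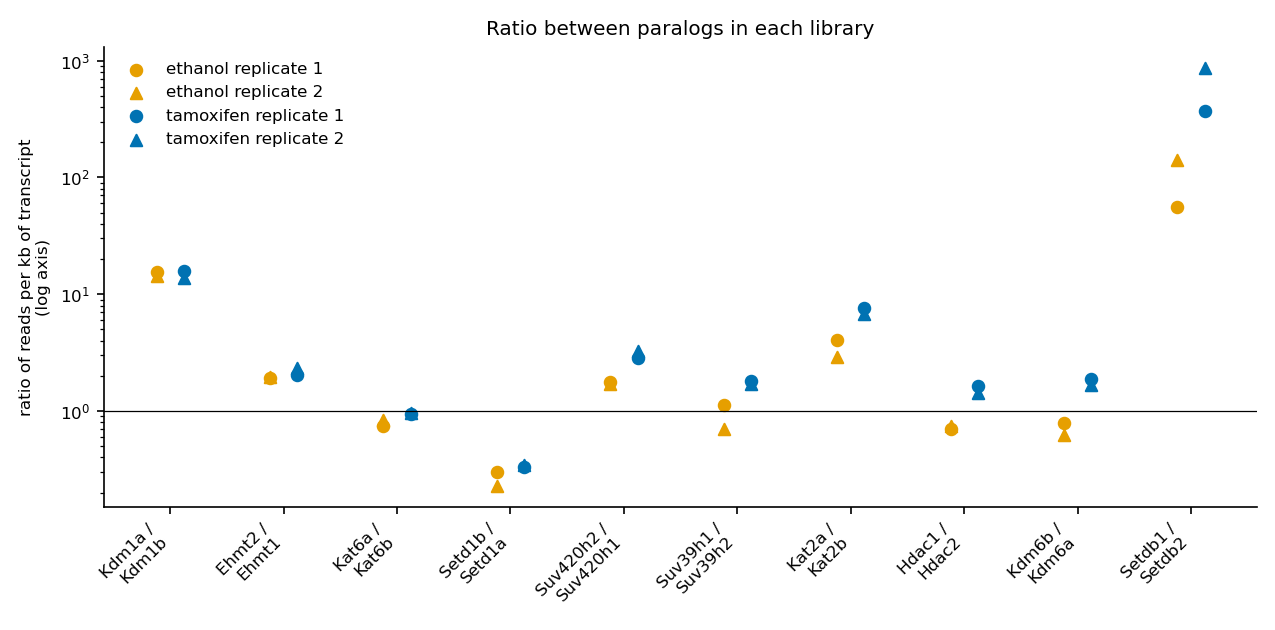
Ratio of reads per kb of transcript (log axis) between the genes of 10 paralog pairs in each library; orange is ethanol, blue is tamoxifen, circles and triangles are replicates 1 and 2, and the line marks a ratio of 1. In 9 pairs both tamoxifen libraries lie above both ethanol libraries, and for Hdac1 over Hdac2 and Kdm6b over Kdm6a they cross the line.

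Across the 10 fixed paralog pairs, 9 ratios did not overlap between the groups, and which gene was put on top was decided after the values were seen. Of single tested genes 74% had groups that did not overlap, and no such share was computed over other gene pairs. The count is therefore a description. The ratio of Setdb1 to Setdb2 rests on 4 and 2 reads of Setdb2 in the tamoxifen libraries. The ratio of 2 genes does not depend on how libraries are scaled. The gene on top had the higher GC content in every pair but Kat6a over Kat6b (47.5 and 48.0%). With GC correction the log2 changes were lower for 8 of the 9 and were 0.30 in place of 0.27 for the exception. Those of Ehmt2 over Ehmt1 (-0.45) and Suv420h2 over Suv420h1 (-0.03) turned negative. With 2 libraries a group an exact permutation test of a ratio cannot go below p = 0.333, so none is given.

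Enzymes of the same kinds whose symbols lie outside the rule were read from fixed lists. Of 20 other lysine methyltransferases 4 were higher and 2 lower (30%, against 44.5% of all tested genes), with a median log2 fold change of 0.07. The smallest adjusted p were those of the H3K79 enzyme Dot1l (0.77 ± 0.15; 0.30 corrected), the MLL-type H3K4 enzyme Kmt2b (0.70 ± 0.16; 0.14 corrected) and its relative Kmt2d (0.68 ± 0.15; 0.16 corrected). The 2 that fell were Ezh2, the H3K27 enzyme of Polycomb (-0.52 ± 0.16; -0.11 corrected), and Kmt2e (-0.75 ± 0.23; -0.44 corrected). Carm1, an arginine methyltransferase that coactivates transcription, rose by 0.69 ± 0.15 (0.23 corrected). Of 7 other demethylases 2 were higher and 1 lower (42.9%, near the 44.5% of all tested genes). Hr rose from 1.82 and 1.65 CPM to 5.09 and 5.49 (1.62 ± 0.24; 0.91 corrected, still called). Uty, the Y-linked counterpart of Kdm6a, fell from 11.8 and 14.6 CPM to 6.37 and 6.72 (-1.01 ± 0.19; -0.02 corrected). Among 10 other acetyltransferases, 3 were higher and 1 lower (40%, near the 44.5% of all tested genes), and these 4 were also called with GC correction. The correction added Ncoa2 (0.46, against 0.29 uncorrected), so that 5 were called with it (50%, against 20.1% of all tested genes). Hat1, which acetylates newly made histone H4, fell from 772 and 853 CPM to 361 and 382 (-1.13 ± 0.15; -0.72 corrected). The coactivator Ncoa3 rose from 363 and 348 CPM to 607 and 633 (0.80 ± 0.15; 0.83 corrected), and Naa40, which acetylates the ends of histones H2A and H4, by 0.65 ± 0.14 (0.54 corrected).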

How the data were processed

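Poly(A) RNA-seq was measured in 4 libraries, 2 per treatment. The authors deposited raw counts of reads per gene symbol with 5 closing summary lines. Per the submitters' processing notes, CASAVA 1.8.2, Bowtie 1.1.1, HTSeq and DESeq2 were used with the build mm9; the sources used here give no roles, annotation or strand setting, so reads of overlapping, antisense or near-identical genes may be split or dropped. Reads in no gene and ambiguous reads (0.889 to 1.05% of all) were left out. Those in no gene made up 51.7 and 40.8% of all with ethanol and 37.6 and 35.0% with tamoxifen. This share thus differed between the groups, and its part in the results was not tested. The 14479 genes kept by filterByExpr were fitted with edgeR 4.0.16 in R 4.3.3 (quasi-likelihood, robust, TMM factors, group as the only term). Each SE was the size of the log2 fold change divided by the square root of its F statistic. CPM was computed from the deposited counts with TMM factors. Replicates differed beyond sampling noise (chi-square over its degrees of freedom was 37 in the ethanol pair and 10.5 in the tamoxifen pair).

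For GC correction, each library's deviation of log2 CPM from the gene mean was fitted on transcript GC by loess (span 0.5, degree 1) and used as an offset. GC and length came from the longest coding transcript in GENCODE M21; of 24428 symbols, 23535 matched directly, 524 by synonym and 369 not at all. The alternatives were other scaling, filters, thresholds, DESeq2 1.42.0, limma voom 3.58.1, the replicate block, and leaving out each library, where the spread of a lone library is taken from the other group. The procedure was tested on simulated data in which all genes had the same biological coefficient of variation, 12.6%. That test does not show how often calls are wrong in these libraries. The enzymes and lists were chosen with earlier results of these data known. Values per library are given by rule for the 4 largest called rises and falls of each class whose mean log2 CPM reached 2 and whose groups were separate, its most abundant member, and fixed paralogs.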

Additional observations from a re-analysis of the deposited data

How the results depend on the processing

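Depth limits the lowest genes (Setdb2, Prmt8), and 2 libraries a group limit the rest. RLE factors, no filter on low counts, a CPM filter, DESeq2, limma voom and an adjusted p of 0.1 kept the count of higher and of lower enzymes, and that of each class, within 1.5 times of the main one. Under an adjusted p of 0.01, 1765 genes were higher and 2041 lower, among them 7 and 4 enzymes (demethylases 0 and 1, methyltransferases 2 and 2, deacetylases 4 and 1, acetyltransferases 1 and 0). With total counts 4082 genes were higher and 2520 lower, among them 24 and 5 enzymes (demethylases 4 higher and 1 lower, methyltransferases 2 lower, acetyltransferases 0 lower). With upper-quartile factors 3530 genes were higher and 2907 lower, and 0 acetyltransferases were lower. With GC correction 1463 genes were higher and 1445 lower, among them 3 and 4 enzymes (demethylases 1 and 0, methyltransferases 1 and 3, deacetylases 1 and 1, acetyltransferases 0 and 0). The causes were not tested.

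The replicate numbers in the labels pair the samples in name only. Same-numbered deviations from the group means correlated at 0.234 over genes, from 2 pairs. With the replicate block 22 of the 67 tested enzymes were higher and 16 lower (demethylases 4 higher and 7 lower). Of all 14479 tested genes, 3919 were higher and 4168 lower with the block. The enzymes called with the block and not without it were Kdm1a, Kdm5a, Kdm3a, Kdm4c, Setdb1 and Prmt3 (lower) and Kdm5c, Kdm2a, Ehmt2, Prmt1, Prmt5 and Hdac4 (higher). With GC correction and the block together 9 enzymes were higher and 5 lower (demethylases 1 lower, deacetylases 2 higher and 1 lower, acetyltransferases 0 and 0). Of all tested genes, 2573 were then higher and 2461 lower.

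Leaving out each library, with and without GC correction, gave 418 to 3598 genes higher and 448 to 3728 lower, 0 to 16 enzymes higher and 1 to 10 lower, 0 to 4 and 0 to 3 demethylases, 0 to 6 and 1 to 4 methyltransferases, 0 to 7 and 0 to 2 deacetylases, and 0 to 1 acetyltransferases in each direction.

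Signs turned only as follows. With GC correction, without and with the block, these log2 fold changes of enzymes that had not been called turned: Kdm1b 0.11 in both, Kdm5a 0.19, Kdm3a 0.02, Kdm3b -0.05 and -0.06, Kdm4b -0.26, Kdm4c 0.18, Kdm8 -0.20 and -0.21, Setd2 0.15, Ehmt2 -0.29, Suv420h1 0.13, Hdac7 -0.18, Hdac9 0.07 and 0.06, Hdac10 -0.35, Hdac11 -0.05 and Kat5 -0.23 and -0.22, and, only with GC correction and the block together, the called Kdm6a 0.01. With total counts Suv420h1 (0.02) and Setd5 (0.06) turned, and with no filter Kat7 (0.00).
With a library left out, with or without GC correction, the values spanned 0 for Kdm1b -0.37 to 0.17, Kdm5a -0.47 to 0.35, Kdm2b -0.08 to 0.41, Kdm3a -0.36 to 0.05, Kdm3b -0.19 to 0.24, Kdm4b -0.44 to 0.42, Kdm4c -0.33 to 0.21, Kdm8 -0.34 to 0.20, Kdm6a -0.73 to 0.25, Kdm6b -0.05 to 1.21, Kdm7a -1 to 0.10, Setd2 -0.33 to 0.20, Suv39h2 -0.75 to 0.18, Ehmt2 -0.44 to 0.47, Suv420h1 -0.17 to 0.20, Suv420h2 -0.04 to 0.87, Setd3 -0.37 to 0.06, Setd4 -0.09 to 0.46, Setd5 -0.16 to 0.08, Prmt1 -0.09 to 0.43, Prmt3 -0.52 to 0.04, Prmt6 -0.17 to 0.29, Prmt9 -0.38 to 0.10, Hdac1 -0.04 to 0.26, Hdac8 -0.06 to 0.46, Hdac7 -0.31 to 0.58, Hdac9 -0.40 to 0.20, Hdac10 -0.55 to 0.31, Hdac11 -0.21 to 0.56, Kat5 -0.29 to 0.07, Kat6b -0.23 to 0.02 and Kat7 -0.09 to 0.15.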

Other observations

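Partners of these enzymes in their complexes were called at 41.9% (deacetylases), 41.7% (SET1 and MLL) and 35.7% (acetyltransferases), where 44.5% of all tested genes were called. The first 2 shares are near that of all genes. Of 31 partners of deacetylases, 7 were higher and 6 lower (median log2 fold change 0.03). With GC correction 1 was higher and 2 were lower (9.68%, against 20.1% of all tested genes). The subunit genes with the smallest adjusted p were Mier2, a scaffold of Hdac1 and Hdac2, which went from 14.9 and 15.4 CPM to 31.6 and 30.6 (1.04 ± 0.15 log2, SE; 0.36 and not called with GC correction), Arid4b of the Sin3 complex (-0.92 ± 0.14; -0.28, not called) and Brms1, also of Sin3 (0.95 ± 0.17; 0.48, not called). Of 12 partners of the SET1 and MLL enzymes, 3 were higher and 2 lower. Dpy30, a core subunit, fell from 444 and 293 CPM to 178 and 172 (-1.07 ± 0.19; -0.54, not called), Psip1, which tethers MLL to chromatin, from 665 and 646 to 350 and 279 (-1.06 ± 0.16; -0.53, still called), and Cxxc1, the CpG-binding subunit of SET1, rose by 0.74 ± 0.15 (0.21, not called). Of 28 partners of acetyltransferases, 5 were higher and 5 lower, among them Trrap (0.66 ± 0.15; 0.45, still called), the large scaffold of SAGA and TIP60, Taf6l of SAGA (0.98 ± 0.22; 0.40, not called) and Msl3, a partner of Kat8 (-0.64 ± 0.16; -0.25, not called).

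Genes beside Setdb2 fell as well on chromosome 14; they were chosen after their values were seen. Cab39l, its neighbour on the opposite strand, fell from 68.5 and 61.3 CPM to 34.2 and 34.1 (-0.93 ± 0.15 log2; -0.46 with GC correction, still called). On the other side, Phf11d fell from 38.5 and 27.5 CPM to 9.62 and 8.63 (-1.85 ± 0.20; -1.30, still called) and Phf11a from 3.32 and 2.23 to 0.991 and 0.897 (-1.52 ± 0.34; -1.17, still called), while Phf11b had -1.04 ± 0.40 (-0.60, not called) and lost its call without any 1 of the 4 libraries. Phf11b had few reads, 19 and 35 with ethanol and 11 and 9 with tamoxifen, so its value is a description. The Phf11 genes are close copies of each other, so reads may have been split among them.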
